A study of Mus musculus with 6 samples.

Results

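The genes described here are the 9 mouse granzyme genes Gzma, Gzmb, Gzmc, Gzmd, Gzme, Gzmf, Gzmg, Gzmk and Gzmm, and Prf1, which encodes perforin. They were chosen by symbol, 10 of the 57186 genes in the deposited count table, because earlier results of these data had shown most of them lower in tumours that lack the Y chromosome. Their differences between the groups are therefore given as a description, with no test.

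MB49 is a bladder carcinoma cell line of a male mouse. Its cells had lost the Y chromosome through CRISPR editing (Y-KO), or had gone through CRISPR with a scrambled control (Y-Scr), and grew as tumours beneath the skin of C57Bl/6J mice until tumour volume reached 500 mm3. RNA came from cells of these tumours that had been sorted as CD45-negative, CD45 being the antigen carried by most leukocytes, and 3 libraries of each group were sequenced under 1 batch label. The immune system of the host is that of an immunocompetent strain, and the labels give neither the sex and age of the mice nor how many clones or animals lie behind each group. SDs and p-values therefore describe the scatter among the libraries, part of which may be technical.

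Total counts ran from 42040955 to 52951031 per library. Among 7972 genes with a mean of at least 20 CPM (read counts scaled to a common library size, after edgeR's TMM adjustment), the root mean square difference in log2 CPM was 0.148 between Y-KO replicates 1 and 2, but 0.441 and 0.445 between these and Y-KO replicate 3. It was 0.110 between Y-Scr replicates 2 and 3, and 0.171 and 0.186 between these and Y-Scr replicate 1. Y-KO replicate 3 thus stood apart from its group, and values are also given without it. The Y-linked demethylase gene Kdm5d, looked up as a check of the labels, was lower in Y-KO (log2 fold change -3.72, edgeR adjusted p = 0.000171).

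Granzymes are serine proteases stored in the cytotoxic granules of natural killer (NK) cells and cytotoxic T cells, and perforin forms the pore through which they reach the cytosol of a target cell. Granzyme A and granzyme B are the best studied, and granzyme B triggers apoptosis by cleaving caspases and their substrates. In the mouse, Gzmb sits in a cluster on chromosome 14 together with Gzmc to Gzmg, a rodent expansion that strongly activated lymphocytes transcribe, and with the mast cell protease genes, whereas Gzma and Gzmk are neighbours on chromosome 13 and Gzmm and Prf1 lie on chromosome 10.

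Transcripts of 9 of the 10 genes were lower in Y-KO than in Y-Scr, and those of Gzmk were not. The summed level of all 10 was 121, 126 and 64.0 CPM in Y-KO replicates 1 to 3, and 1165, 1070 and 1071 CPM in Y-Scr replicates 1 to 3. Every Y-KO library lay below every Y-Scr library, with Y-KO replicate 3 the lowest. The means were 104 ± 34.6 (SD, n = 3) and 1102 ± 54.4 CPM, a 10.6-fold difference. On the log2 scale the summed level differed by -3.41, and by -3.16 without Y-KO replicate 3. In bulk RNA, fewer cells of a type and less RNA of the gene per cell cannot be told apart.

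All 10 genes passed the filter on low counts, and Gzmm, with 7 counts in Y-KO replicate 1, passed it through its Y-Scr counts. For 9 of them the 3 Y-KO values were all below the 3 Y-Scr values, which held for 20.3% of the 17837 genes tested. The same 9 had an edgeR adjusted p under 0.05 on the lower side, as did 8.27% of all genes, and a fitted difference of over 4-fold, as did 4.23%. The median log2 fold change was -3.81 over the 10 genes and -0.03 over all genes tested. Since this contrast chose the genes, the counts describe them and support nothing further. On a scaling by library size alone the median of all genes moved to -0.17, and that of the 10 genes to -3.95.

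**Figure D1:**
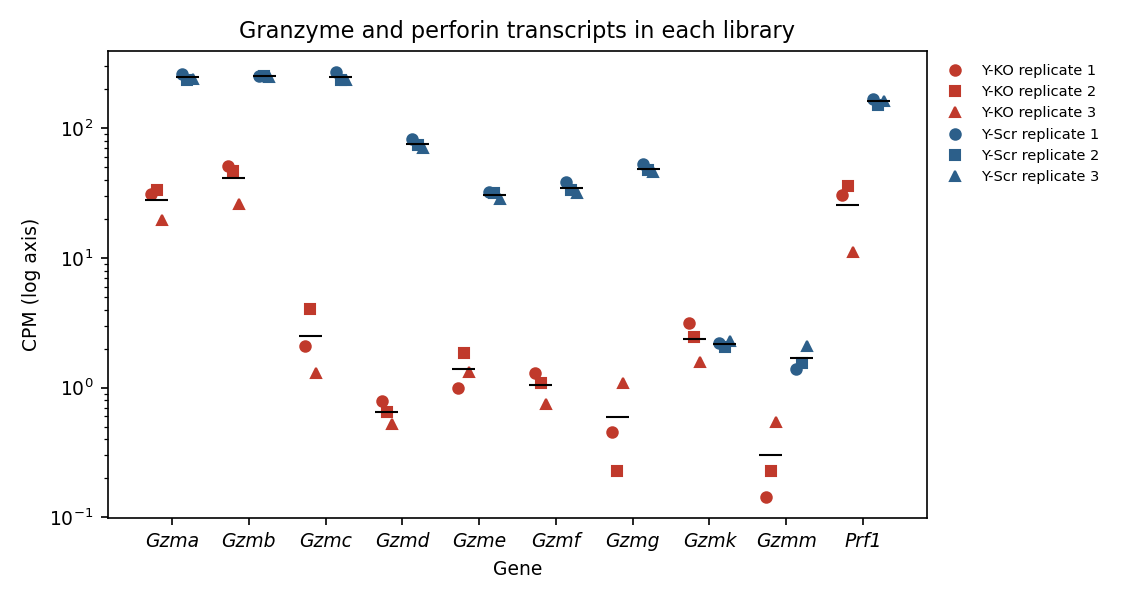
Level of each granzyme gene and Prf1 in CPM on a log10 axis, one point per library, with Y-KO and Y-Scr libraries side by side and a line at each group mean. Groups are separate for 9 genes, by 5.50-fold (Gzmm) to 115-fold (Gzmd), and overlap for Gzmk.

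Prf1 (chromosome 10, 61133612 to 61140459, plus strand, GRCm39 here and for all gene positions) encodes the pore-forming protein without which granzymes do not enter a target cell efficiently. Its level was 30.7, 35.6 and 11.1 CPM in the Y-KO libraries and 169, 152 and 162 CPM in the Y-Scr libraries. The groups did not overlap, and Y-KO replicate 3 was far below the other Y-KO libraries. The means of 25.8 ± 13.0 and 161 ± 8.67 CPM (SD, n = 3) differed 6.24-fold (log2 fold change -2.64, SE 0.36, and -2.28 without Y-KO replicate 3).

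Gzma (chromosome 13, 113230359 to 113237515, minus strand) encodes a trypsin-like granzyme that is made by resting as well as activated NK cells. It was read at 30.9, 33.3 and 19.5 CPM in Y-KO, and at 262, 238 and 242 CPM in Y-Scr. Again no Y-KO library reached any Y-Scr library, and replicate 3 was the lowest. The means of 27.9 ± 7.36 and 247 ± 12.9 CPM differed 8.85-fold (log2 fold change -3.15, SE 0.19, and -2.95 without Y-KO replicate 3).

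Gzmb (chromosome 14, 56496295 to 56499717, minus strand) encodes the granzyme that cleaves after aspartate, as caspases do. Its level was 50.7, 46.8 and 26.3 CPM in Y-KO against 253, 255 and 250 CPM in Y-Scr. The Y-Scr libraries were close to each other, while Y-KO replicate 3 was again lowest. The means of 41.3 ± 13.1 and 252 ± 2.48 CPM differed 6.11-fold (log2 fold change -2.61, SE 0.22, and -2.37 without Y-KO replicate 3). Among the genes of the chromosome 14 granzyme group, Gzmb thus had the smallest difference.

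Gzmc (chromosome 14, 56468898 to 56472113, minus strand), whose protein cleaves other substrates than granzyme B does, was rare in the Y-KO libraries. They held 102, 180 and 57 of its counts (2.10, 4.06 and 1.29 CPM), against 14870, 10499 and 12631 counts (272, 236 and 236 CPM) in Y-Scr. The Y-KO values were a small fraction of every Y-Scr value, and Y-KO replicate 2 held the most counts of its group. The means of 2.49 ± 1.42 and 248 ± 20.7 CPM differed 99.7-fold (log2 fold change -6.64, SE 0.36, and -6.34 without Y-KO replicate 3).

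Gzmd (chromosome 14, 56367013 to 56370065, minus strand) had the largest difference of the 10 genes. Its 38, 29 and 23 counts in Y-KO (0.784, 0.654 and 0.522 CPM) stood against 4499, 3306 and 3750 counts in Y-Scr (82.2, 74.2 and 70.1 CPM). Both groups were tight, and the difference was 115-fold (log2 fold change -6.84, SE 0.17, and -6.71 without Y-KO replicate 3). Gzmg (chromosome 14, 56394039 to 56397036, minus strand) had 22, 10 and 48 counts in Y-KO and 2896, 2106 and 2474 in Y-Scr. Here Y-KO replicate 3 was the highest of its group, unlike in Prf1, Gzma, Gzmb, Gzmc and Gzmd, and the 82.8-fold difference (log2 fold change -6.37, SE 0.40) was -7.14 without that library.

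Gzmf (chromosome 14, 56442720 to 56448874, minus strand) stood at 1.30, 1.08 and 0.749 CPM in Y-KO against 38.4, 33.6 and 31.9 CPM in Y-Scr, 33.0-fold apart (log2 fold change -5.04, SE 0.21, and -4.86 without Y-KO replicate 3). Gzme (chromosome 14, 56355083 to 56358082, minus strand) stood at 0.990, 1.85 and 1.32 CPM in Y-KO against 32.2, 31.5 and 28.4 CPM in Y-Scr, 22.2-fold apart (log2 fold change -4.47, SE 0.23, and -4.44 without Y-KO replicate 3). Less is known of the substrates of granzymes D to G than of those of granzymes A and B. Together the 5 genes Gzmc to Gzmg gave 5.63, 7.88 and 4.97 CPM in Y-KO against 478, 422 and 413 CPM in Y-Scr. The groups were far apart, and their means differed 71.0-fold.

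Reads that map to several places were not counted, and Gzmc to Gzmg resemble each other. In the GENCODE release M21 transcripts, 4.14% of the windows of 50 bases in Gzmc also occur in a transcript of another gene, as do 21.9% in Gzmd, 20.6% in Gzme, 19.4% in Gzmf and 19.8% in Gzmg. No window of 50 bases is shared for Gzma, Gzmb, Gzmk, Gzmm or Prf1. With windows of 75 bases the share is 0% in Gzmc and from 4.75% to 9.47% in Gzmd to Gzmg, and with 100 bases it is 6.71% in Gzmf and under that in the others. The Gzmf share at 100 bases is with Gm4022, an overlapping gene model, and the counting ignored strand and left out reads that fell on both genes. The levels of Gzmd to Gzmg are therefore uncertain and may be too low. The read length is not given in the sources used here.

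Promoter sequences of Gzmc to Gzmg, whose differences were the largest of the 10 genes, are shown for comparison. They are from the RefSeq promoter table, whose build is GRCm38.p6, so that these positions are not those of the gene coordinates above. All are read 5′ to 3′ along the gene. Capitals mark the letters AGGAAGT of an Ets motif, ACCACA of a Runx motif, TGACGTCA of a CREB/ATF motif and TGANTCA of an AP-1 motif, each on either strand. These motifs were picked after the sequences had been seen, and a match is a description of the letters only. The windows of Gzmc to Gzmg (chr14:56234668-56234857, chr14:56132608-56132793, chr14:56120641-56120826, chr14:56211443-56211628 and chr14:56159610-56159795, all minus strand) start at their Ets match and can be read against each other.
Gzmc: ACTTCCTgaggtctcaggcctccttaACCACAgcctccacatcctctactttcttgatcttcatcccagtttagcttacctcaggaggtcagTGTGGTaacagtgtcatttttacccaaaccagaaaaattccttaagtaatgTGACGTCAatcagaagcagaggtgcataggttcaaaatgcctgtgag
Gzmd: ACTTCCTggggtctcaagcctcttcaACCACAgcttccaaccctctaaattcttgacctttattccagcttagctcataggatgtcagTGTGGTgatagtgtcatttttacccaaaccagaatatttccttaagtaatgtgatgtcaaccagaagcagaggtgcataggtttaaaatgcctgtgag
Gzme: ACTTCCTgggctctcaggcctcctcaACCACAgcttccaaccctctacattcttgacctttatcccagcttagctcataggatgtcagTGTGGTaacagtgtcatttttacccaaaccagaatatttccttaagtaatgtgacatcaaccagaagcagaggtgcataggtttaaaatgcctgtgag
Gzmf: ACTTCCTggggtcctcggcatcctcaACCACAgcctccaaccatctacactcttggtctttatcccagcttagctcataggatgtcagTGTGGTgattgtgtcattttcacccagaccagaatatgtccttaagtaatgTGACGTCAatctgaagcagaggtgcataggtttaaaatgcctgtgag
Gzmg: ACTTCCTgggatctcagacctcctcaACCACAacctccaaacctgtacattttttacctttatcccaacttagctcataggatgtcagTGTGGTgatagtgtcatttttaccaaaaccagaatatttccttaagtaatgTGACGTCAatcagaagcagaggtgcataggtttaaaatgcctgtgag
Each begins with the same 7 letters, followed by a Runx match and, further on, by a Runx match on the other strand. The CREB/ATF letters are whole in Gzmc, Gzmf and Gzmg and are not whole in Gzmd and Gzme.

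The bases next to the start of Gzmb (chr14:56262335-56262484, minus strand), Gzma (chr13:113100982-113101131, minus strand) and Gzmk (chr13:113180966-113181115, minus strand), and a stretch upstream of Prf1 (chr10:61297686-61297785, plus strand), differ from these and from each other, and are shown for contrast, with Gzmk as the gene whose groups overlapped.
Gzmb: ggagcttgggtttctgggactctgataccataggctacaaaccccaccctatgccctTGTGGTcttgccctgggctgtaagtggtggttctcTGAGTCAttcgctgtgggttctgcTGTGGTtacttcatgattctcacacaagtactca
Gzma: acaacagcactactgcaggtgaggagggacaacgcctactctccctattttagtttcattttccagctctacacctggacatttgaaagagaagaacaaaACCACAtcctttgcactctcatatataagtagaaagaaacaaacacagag
Gzmk: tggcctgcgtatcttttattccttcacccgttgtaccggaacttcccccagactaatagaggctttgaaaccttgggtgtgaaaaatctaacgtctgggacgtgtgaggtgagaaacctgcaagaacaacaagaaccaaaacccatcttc
Prf1: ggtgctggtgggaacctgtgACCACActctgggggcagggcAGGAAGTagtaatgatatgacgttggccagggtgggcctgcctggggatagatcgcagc
Gzmb holds Runx matches and an AP-1 match, Gzma a Runx match and Prf1 a Runx and an Ets match, while Gzmk holds none of the 4 motifs in these bases.

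Across whole windows of 300 bases (250 before and 50 after the start) the Ets letters were found in Gzmc to Gzmg and Prf1, 6 of the 10 genes, and in 9.35% of all 32851 windows of the table. Runx letters were found in 9 of the 10 genes, all but Gzmk, and in 16.8% of all windows. The CREB/ATF letters were in Gzmc, Gzmf and Gzmg and in 1.79% of all windows, and the AP-1 letters in Gzmb and in 7.81%. Of the other motifs searched, the T-box letters GGTGTGA were in Gzmk and Gzmm (3.98% of all windows), TTCNNNGAA of a STAT motif in Gzmb and Gzmm (8.30%) and AGATAA of a GATA motif in Gzmm (11.2%), and TATAAA was in none (13.6%). Aligned end to end, the windows of Gzmc to Gzmg were 72.9% to 93.4% identical in 10 pairs and those of Gzmb and these 5 genes 38.8% to 43.8%. Since Gzmc to Gzmg are near copies, their shared motifs are not separate occurrences.

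Gzmk (chromosome 13, 113308142 to 113362442, minus strand), which encodes a trypsin-like granzyme known from memory CD8 T cells, was the exception among the 10. It had 152, 108 and 69 counts in Y-KO (3.14, 2.44 and 1.57 CPM) and 120, 91 and 122 counts in Y-Scr (2.19, 2.04 and 2.28 CPM). The groups overlapped, with the highest and the lowest values both in Y-KO. The means were 2.38 ± 0.786 and 2.17 ± 0.121 CPM (log2 fold change 0.13, SE 0.32). The sign depended on 1 library, since leaving out Y-KO replicate 1 gave -0.12 and leaving out replicate 3 gave 0.36, and it was -0.01 on a scaling by library size alone. Its neighbour Gzma lies 70.6 kb away.

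Gzmm (chromosome 10, 79524854 to 79531095, plus strand), which encodes a granzyme that cleaves after methionine and is found mainly in NK cells, was the least abundant. It had 7, 10 and 24 counts in Y-KO and 76, 69 and 113 in Y-Scr. The groups did not overlap, but the spread within each was wide for such counts. At 0.305 ± 0.212 and 1.68 ± 0.380 CPM the difference was 5.50-fold (log2 fold change -2.46, SE 0.58), and -3.18 on the log2 scale without Y-KO replicate 3, which had the most counts of its group.

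The make-up of the family differed between the groups as well as its total. To compare genes, CPM was divided by the exonic length in kilobases. In Y-Scr the order was Gzmc (277 ± 23.2 CPM per kb), Gzma (246 ± 12.8), Gzmb (176 ± 1.73), Gzmd (78.3 ± 6.40), Prf1 (62.3 ± 3.36), Gzmg (53.7 ± 3.96), Gzmf (37.7 ± 3.70), Gzme (33.5 ± 2.19), Gzmk (1.56 ± 0.0869) and Gzmm (1.14 ± 0.258). For Gzmc and Gzma, and for Gzmf and Gzme, the ranges of the mean ± SD overlapped. In Y-KO it was Gzmb (28.7 ± 9.14 CPM per kb), Gzma (27.7 ± 7.32), Prf1 (9.98 ± 5.03), Gzmc (2.78 ± 1.59), Gzmk (1.71 ± 0.566), Gzme (1.51 ± 0.474), Gzmf (1.14 ± 0.302), Gzmd (0.678 ± 0.136), Gzmg (0.649 ± 0.493) and Gzmm (0.207 ± 0.144). Gzmb and Gzma did not differ beyond their spread there, nor did neighbours in the stretch of this order from Gzmc to Gzmf or in that from Gzmd to Gzmm.

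Shares within a library do not depend on the scaling between libraries. Gzmc to Gzmg made up 7.13%, 9.63% and 11.1% of the summed CPM per kb of the 10 genes in the Y-KO libraries, and 51.0%, 49.4% and 48.6% in the Y-Scr libraries. The groups were far apart, at 9.29 ± 2.02% and 49.6 ± 1.23%. Gzmb took 38.2 ± 2.44% in Y-KO against 18.2 ± 0.971% in Y-Scr, and Gzma 37.3 ± 2.12% against 25.4 ± 0.305%. Prf1 took 12.6 ± 3.43% against 6.45 ± 0.237%, and Gzmk 2.29 ± 0.332% against 0.162 ± 0.0121%. The Y-KO libraries were thus mainly Gzma, Gzmb and Prf1, and the Y-Scr libraries in like parts Gzmc to Gzmg and the rest.

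**Figure D2:**
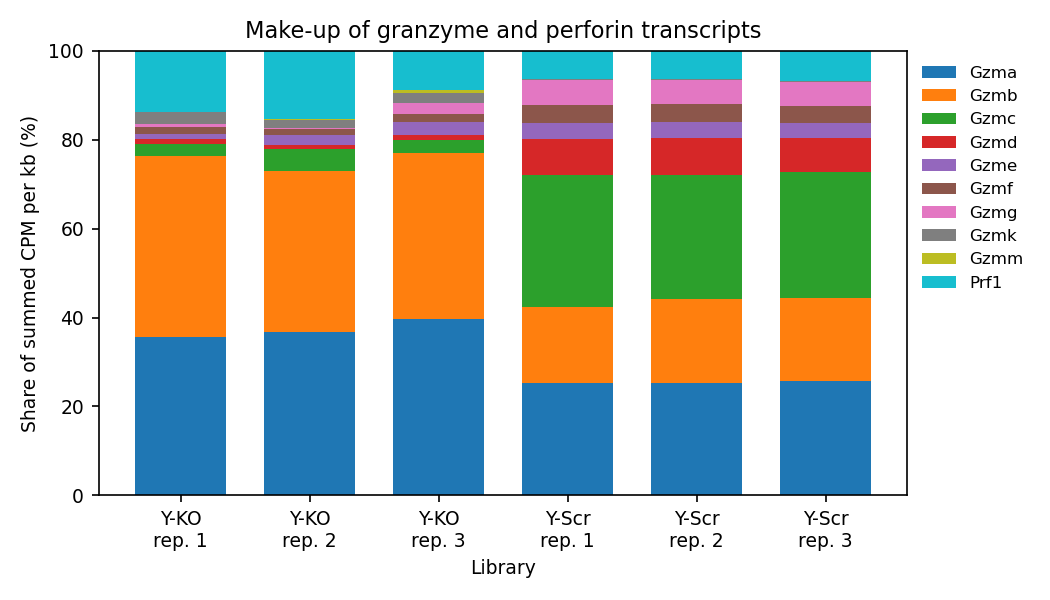
Share of each gene in the summed CPM per kb of the granzyme genes and Prf1, in percent, one stacked bar per library. Gzmc to Gzmg fill 7.13% to 11.1% of the Y-KO bars and 48.6% to 51.0% of the Y-Scr bars.

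The ratio of Gzmc to Gzmb in CPM per kb was 0.0666, 0.139 and 0.0791 in Y-KO and 1.73, 1.49 and 1.52 in Y-Scr. Each Y-Scr library had more Gzmc than Gzmb per kilobase, and each Y-KO library less. The ratio of Gzmb to Prf1 was 2.97, 2.36 and 4.28 in Y-KO and 2.69, 3.02 and 2.78 in Y-Scr, so that granzyme B and perforin transcripts kept overlapping proportions. Within the copies, Gzmd to Gzmc was 0.290 ± 0.122 in Y-KO and 0.283 ± 0.00853 in Y-Scr, and Gzme to Gzmc was 0.632 ± 0.313 and 0.121 ± 0.00814. The Gzme ratio was higher in every Y-KO library than in any Y-Scr library, and the Gzmd ratio overlapped.

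Levels were also read against transcripts of leukocytes, because several marker lists moved with the granzymes. Ptprc, which encodes CD45, was present in the CD45-negative fraction with 242 ± 93.1 CPM in the Y-KO libraries and 567 ± 41.4 CPM in the Y-Scr libraries (log2 fold change -1.23, SE 0.26, edgeR adjusted p = 0.0157). This call was lost without Y-Scr replicate 1 (edgeR adjusted p = 0.0550), replicate 2 (0.0649) or replicate 3 (0.0746). Per Ptprc transcript, the means of Gzmb were 0.175 ± 0.0195 in Y-KO and 0.447 ± 0.0352 in Y-Scr, a 2.55-fold difference, those of Prf1 differed 2.79-fold and those of Gzma 3.63-fold. The same ratio for Gzmc differed 43.4-fold, at 0.0101 ± 0.00325 and 0.441 ± 0.0705. Gzma, Gzmb, Gzmc and Prf1 were lower relative to Ptprc in every Y-KO library than in any Y-Scr library.

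Klrb1c, which encodes the NK cell receptor NK1.1 and was chosen as a reference with its values known, was 7.23-fold lower in Y-KO (7.82 ± 2.13 and 56.6 ± 1.30 CPM). Per Klrb1c transcript, Gzmb stood at 4.95, 6.77 and 4.17 in Y-KO and at 4.41, 4.62 and 4.35 in Y-Scr. The groups overlapped, as they did for Prf1 (3.30 ± 1.72 and 2.84 ± 0.101) and Gzma (3.64 ± 1.02 and 4.36 ± 0.186). Gzmc did not, at 0.205, 0.588 and 0.205 in Y-KO and 4.74, 4.27 and 4.11 in Y-Scr, a 13.1-fold difference. Relative to Ncr1, which encodes another NK cell receptor and was lower still, Gzmb was higher in Y-KO (11.6 ± 3.56 and 4.37 ± 0.106). Which reference is used therefore sets the direction for Gzmb but not for Gzmc, which was 5.83-fold lower per Ncr1 transcript.

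Cd8a, which encodes a chain of the CD8 coreceptor of cytotoxic T cells, overlapped between the groups (37.4 ± 10.2 and 29.9 ± 1.64 CPM, log2 fold change 0.32, SE 0.19, edgeR adjusted p = 0.300). It was higher in Y-KO once replicate 3 of that group was left out (0.53, edgeR adjusted p = 0.000644). Per Cd8a transcript, Gzmk was 0.0754, 0.0543 and 0.0608 in Y-KO and 0.0708, 0.0664 and 0.0814 in Y-Scr. These ratios overlapped too, so Gzmk and Cd8a kept like proportions in both groups. Gzmb per Cd8a transcript was 1.09 ± 0.109 and 8.45 ± 0.406, a 7.72-fold difference. For Gzmc that difference was 130-fold. Per Ptprc transcript Gzmk was instead higher in every Y-KO library, at 0.0102 ± 0.00180 and 0.00385 ± 0.000340, and so it was per Klrb1c transcript (0.302 ± 0.0525 and 0.0383 ± 0.00132). It was also higher in every Y-KO library per transcript of Cd3e, a marker of T cells at large (0.175 ± 0.0200 and 0.0858 ± 0.00232). Per Cd3e transcript Gzmb was 3.29-fold and Gzmc 53.5-fold lower in Y-KO. The like proportions of Gzmk thus held for Cd8a and not for Cd3e.

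**Figure D3:**
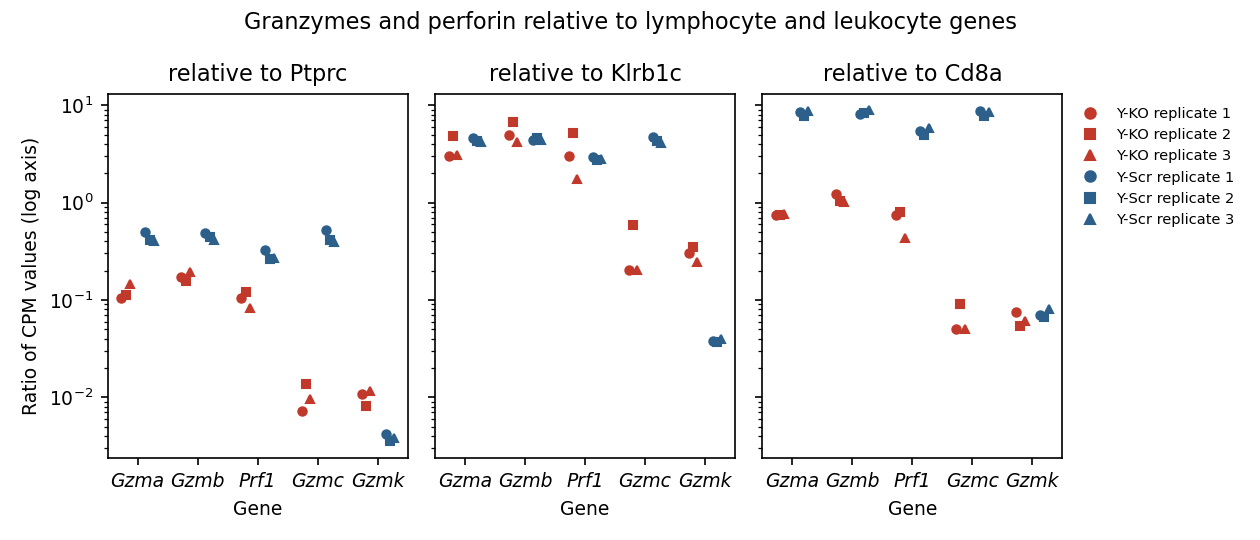
CPM of granzyme genes and Prf1 divided by the CPM of Ptprc, Klrb1c or Cd8a in the same library, on a log10 axis, one point per library. Gzmb overlaps between the groups per Klrb1c and Gzmk per Cd8a, and Gzmc is lower in all 3 Y-KO libraries per each of the 3 references.

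The chromosome 14 cluster was then read gene by gene. The deposited annotation places 27 genes in a window of 320.8 kb between the outermost protease genes, and 18 had at least 10 counts over the 6 libraries. The mast cell protease genes in it were also lower in Y-KO. Mcpt1 was at 0.0488 ± 0.0659 and 23.6 ± 2.12 CPM (log2 fold change -8.78, SE 0.46, edgeR adjusted p = 2.17e-05), Mcpt2 at 0.0752 ± 0.130 and 9.95 ± 0.781 CPM (log2 fold change -7.03, SE 0.75) and Mcpt4, a chymase, at 0.358 ± 0.231 and 10.9 ± 0.804 CPM (log2 fold change -4.93, SE 0.43). The chymase gene Cma1 (-3.74, SE 0.56) and Ctsg, which encodes the neutrophil protease cathepsin G (-4.41, SE 0.91, edgeR adjusted p = 0.0140), had log2 fold changes on the same side, the Ctsg call being lost without Y-Scr replicate 1 (edgeR adjusted p = 0.0612), 2 (0.0582) or 3 (0.0848). Mcpt8, a basophil protease gene, differed least of those that passed the test, at 22.8 ± 5.28 and 50.7 ± 2.89 CPM, 2.23-fold (edgeR adjusted p = 0.00241). Mcpt1, Mcpt2, Mcpt4, Cma1, Cma2, Ctsg and Gm8961 passed the filter on low counts through their Y-Scr counts, so that some difference was set by the filter.

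In the same window Cma2 differed by -2.73 on the log2 scale without passing the test (SE 1.34, edgeR adjusted p = 0.208) and the gene model Gm5801 overlapped between the groups (-0.50, SE 0.57, edgeR adjusted p = 0.611). The model Gm8961 was at 0 in Y-KO and had 112 counts in the sum of the Y-Scr libraries, which is at least 33.4-fold lower when 3 counts per group are taken as the floor. Mcpt9 had 0 and 18 counts and the unnamed model ENSMUSG00000121428 0 and 49 counts, but 16 and 43 of these came from Y-Scr replicate 1 alone, and no fold is given. Gzmn, a further granzyme gene of the cluster, had 1 and 29 counts, a ratio of 26.0 with an exact 95% interval from 4.31 to 1061, and was too rare to be tested. If paired reads were counted singly, this interval is too narrow and the least fold of Gm8961 too high. The mast cell protease genes and Ctsg lie on one side of Gzme and the granzyme genes on the other. Among the genes of the window that passed the test, the difference ranged from 2.23-fold at Mcpt8 and 6.11-fold at Gzmb to 115-fold at Gzmd and 441-fold at Mcpt1, the last resting on 7 Y-KO counts.

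**Figure D4:**
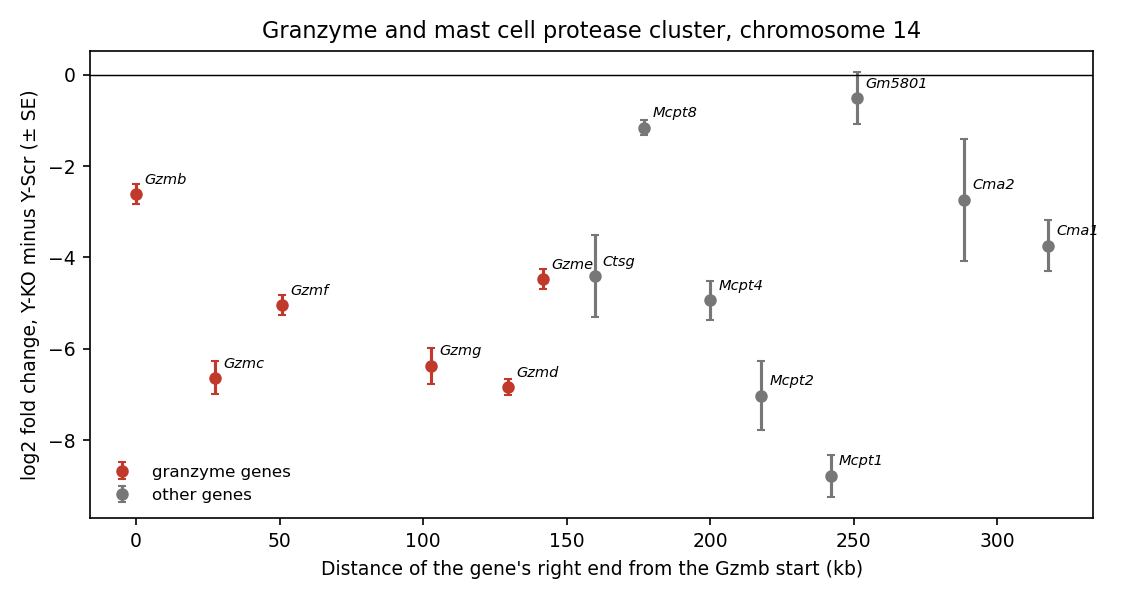
log2 fold change (Y-KO minus Y-Scr) with its SE for the tested genes of the chromosome 14 cluster, against the distance in kb of the gene's right end from the start of Gzmb, granzyme genes in red and others in grey. Genes without Y-KO counts, such as Gm8961, are left out; Mcpt8 at -1.16 and Gzmb at -2.61 lie well above the genes from Gzmc to Gzmg at -4.47 to -6.84.

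Genes whose products load granzymes into granules or release them changed in both directions. Of 20 genes tested, 5 fell, 2 rose and 13 did not pass the test (across all genes, 8.27% fell and 7.82% rose), with a median log2 fold change of -0.12. Ctsw, which encodes the lymphocyte protease cathepsin W, fell 6.32-fold, from a Y-Scr level of 88.6 ± 9.96 CPM (log2 fold change -2.66, SE 0.14, edgeR adjusted p = 2.15e-05). Cst7, which encodes cystatin F, an inhibitor of the cathepsin that activates granzymes, fell by 1.57 on the log2 scale (SE 0.19, edgeR adjusted p = 0.00140), and Nkg7, a granule membrane protein gene, by 1.63 (SE 0.23, edgeR adjusted p = 0.00260). Unc13d, which encodes the vesicle priming factor Munc13-4, fell by 0.40 (SE 0.08, edgeR adjusted p = 0.0131) but did not pass without Y-Scr replicate 2 (0.0888) or 3 (0.0675). Srgn, the proteoglycan to which granule contents bind, overlapped (log2 fold change -0.02, SE 0.35, edgeR adjusted p = 0.975), but was higher in Y-KO without replicate 3 of that group (0.34, edgeR adjusted p = 0.00015).

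Named after their values were seen, the others that passed were Rab27a, a granule docking GTPase gene, which fell by 0.85, and Ctsc and Lamp1, which rose by 0.94 and 0.32. Ctsc encodes cathepsin C, which removes the propeptide of granzymes, and Lamp1 a lysosomal membrane protein. The Rab27a call was lost without Y-KO replicate 2 (edgeR adjusted p = 0.107) or without Y-Scr replicate 1 (0.109), 2 (0.101) or 3 (0.143). The calls of Ctsc and Lamp1 held only while all libraries, or all but Y-KO replicate 3, were in the fit, with edgeR adjusted p from 0.132 to 0.144 and from 0.0508 to 0.143 when 1 of the others was left out. Without Y-KO replicate 3, 9 of the genes fell and 4 rose, and without Y-Scr replicate 2 or 3, 3 fell and 0 rose.

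Granzyme inhibitors are serpins that protect cells from the proteases. Of 7 tested, 3 fell and 1 rose (across all genes, 8.27% fell and 7.82% rose), with a median log2 fold change of -0.44. Serpinb9, the cytosolic inhibitor of granzyme B, fell 2.37-fold, from 129 ± 3.89 to 54.2 ± 3.09 CPM (edgeR adjusted p = 8.19e-05). Serpinb6b fell 2.66-fold (edgeR adjusted p = 9.29e-05), and Serpina3n, a secreted inhibitor of granzyme B, 7.91-fold (edgeR adjusted p = 0.000695). These 3 calls held without any 1 library. Serpinb6a rose by 0.32 (edgeR adjusted p = 0.0277) but did not pass without Y-KO replicate 1 or 2 or Y-Scr replicate 2 or 3 (edgeR adjusted p from 0.0671 to 0.143).

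Genes of granzyme substrates and of the death programme that granzymes start showed small differences in both directions. Of 17 tested, 4 fell, 3 rose and 10 did not pass (across all genes, 8.27% fell and 7.82% rose). The median log2 fold change was -0.04, against -0.03 over all genes tested. Set (0.35) and Nme1 (0.65), members of the complex that granzyme A attacks, rose and Igf2r, a receptor proposed for granzyme B uptake, fell by 0.48. All 7 calls were lost without Y-Scr replicate 2 and without Y-Scr replicate 3, and without Y-KO replicate 3, 4 fell and 6 rose.

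Regulators of cytotoxic gene transcription, namely transcription factors, cytokines and their receptors, fell in 18 of 28 genes tested, rose in 1 and did not pass in 9 (median log2 fold change -0.66). Across all genes, 8.27% fell and 7.82% rose. Eomes, a T-box factor that drives Prf1 and granzyme transcription, fell 7.09-fold, from 40.5 ± 1.91 to 5.70 ± 1.38 CPM (edgeR adjusted p = 5.61e-05). The receptor genes Il2ra (5.01-fold, edgeR adjusted p = 9.29e-05), Il2rb (4.47-fold, 0.000162) and Il18r1 (4.56-fold, 0.000156), which carry the signals of IL-2, IL-15 and IL-18, fell with it. Tbx21, named after its values were seen, encodes the related factor T-bet and fell 4.49-fold (edgeR adjusted p = 0.000649). These 5 calls held without any 1 library. The one gene that rose, Il15ra, which presents IL-15 to lymphocytes, was at 42.5 ± 6.19 and 22.6 ± 0.534 CPM (edgeR adjusted p = 0.00246), and that call was lost when the close library pairs were each summed (0.0719). The number that fell was 12 without Y-KO replicate 1, 10, 8 and 8 without Y-Scr replicates 1, 2 and 3, and 20 without Y-KO replicate 3.

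Other effector molecules of cytotoxic lymphocytes split. Of 10 genes, 5 fell and 0 rose (median log2 fold change -1.02), where across all genes 8.27% fell and 7.82% rose. The chemokine gene Xcl1 fell 14.4-fold, from 34.8 ± 1.80 to 2.41 ± 0.745 CPM (edgeR adjusted p = 4.18e-05), and Fasl, the ligand of the death receptor Fas, 3.77-fold (edgeR adjusted p = 0.00221), and both calls held without any 1 library. Tnfsf10, which encodes TRAIL, fell 2.15-fold (edgeR adjusted p = 0.00885, lost without Y-Scr replicate 2 at 0.0545 or 3 at 0.0516). Ccl5 fell 1.93-fold (edgeR adjusted p = 0.0201), lost without Y-Scr replicate 1 (0.0863), 2 (0.0788) or 3 (0.0606). Ifng and Tnf, the cytokines of these cells, overlapped between the groups, with log2 fold changes of 0.01 (SE 0.43) and -0.02 (SE 0.34) and edgeR adjusted p of 0.990 and 0.971. Leaving out Y-KO replicate 3 gave 0.37 and 0.28 for them, again without passing the test (edgeR adjusted p = 0.340 and 0.318). The fifth gene was Lta, 4.81-fold lower (edgeR adjusted p = 0.0317), whose call was lost without Y-KO replicate 1 or any 1 Y-Scr library. With 42, 42 and 6 counts in Y-KO, Lta needed its Y-Scr counts to pass the filter on low counts. Part of its difference may therefore have been set by the filter. The count that fell was 3 without Y-Scr replicate 1, and 2 without Y-Scr replicate 2 or 3.

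**Figure D5:**
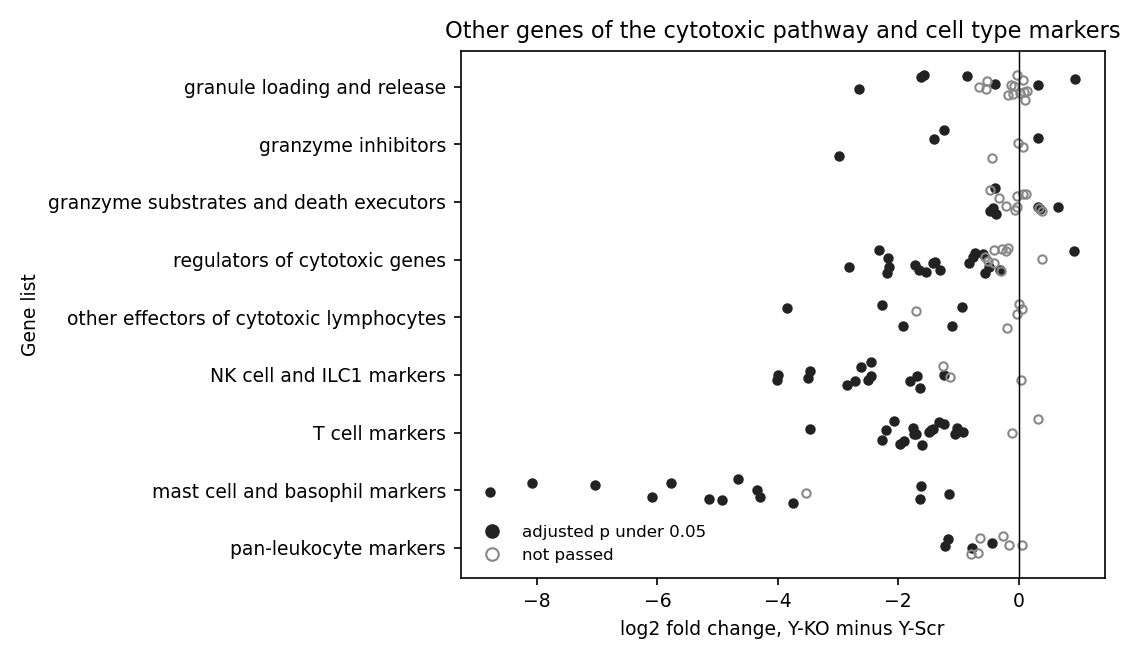
log2 fold change (Y-KO minus Y-Scr) of each tested gene of 9 lists, 1 row of points per list with a vertical jitter, filled where the edgeR adjusted p is under 0.05 and open where it is not, with a line at 0. Granule loading and release genes lie on both sides of 0 (median -0.12), and mast cell and basophil markers reach farthest to the left (median -4.80 with all tested genes); genes without Y-KO counts are left out of the plot.

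Markers of the cell types that could carry these transcripts moved in the same direction, and their part in the differences was not tested. Of 17 NK cell and ILC1 markers, 14 fell and 0 rose (median log2 fold change -2.46), where across all genes 8.27% fell and 7.82% rose. Their summed level ran from 167 to 224 CPM in Y-KO and from 651 to 670 CPM in Y-Scr. Ncr1 fell 15.9-fold (edgeR adjusted p = 1.53e-05), and the receptor genes Klra8 and Klra7 fell 11.2-fold and 11.1-fold. Of 20 T cell markers, 18 fell and 0 rose (median -1.55), and the summed level ran from 185 to 325 CPM and from 691 to 771 CPM. Cd4 fell 4.60-fold and Trdc, the constant part of the delta chain of the T cell receptor, by 3.46 on the log2 scale, whereas the markers of CD8 T cells, Cd8a and Cd8b1, were those that did not pass (log2 fold changes 0.32 and -0.12).

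Of 16 mast cell and basophil markers tested, 15 fell and 0 rose (median log2 fold change -4.80), where across all genes 8.27% fell and 7.82% rose. Markers with few Y-KO counts, such as Ms4a2 and Mcpt1, passed the filter on low counts through their Y-Scr counts, so that some difference was set by the filter. The summed level of the list ran from 58.1 to 127 CPM in Y-KO and from 374 to 404 CPM in Y-Scr. This list shares Mcpt1, Mcpt2, Mcpt4, Mcpt8 and Cma1 with the chromosome 14 cluster. Gata2, a factor of the mast cell lineage, fell 54.6-fold (edgeR adjusted p = 2.66e-06). Ms4a2, which encodes a chain of the IgE receptor, gave a total of 2 counts in Y-KO and of 712 in Y-Scr. The exact 95% interval of the ratio runs from 87.9 to 2638, and is too narrow if paired reads were counted singly. The count that fell was 11 without Y-Scr replicate 1 or 3 and 12 without Y-Scr replicate 2.

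The summed level of 10 pan-leukocyte markers, from 1376 to 2983 CPM in Y-KO and from 3573 to 3675 CPM in Y-Scr, differed far less than that of the granzymes. Of these markers 4 fell and 0 rose (across all genes, 8.27% fell and 7.82% rose). None of the falls held when any 1 Y-Scr library was left out, and without Y-KO replicate 3, 7 fell and 2 rose. Macrophage markers went the other way (5 of 8 rose, 0 fell, median log2 fold change 0.92), neutrophil markers fell in 4 of 6 and B cell markers in 4 of 6, and of 5 plasmacytoid dendritic cell markers 2 fell and 2 rose. These small counts moved when single libraries were left out. The macrophage markers that rose were 8 without Y-KO replicate 3 and 3 without any 1 of the other libraries, and the neutrophil markers that fell were 1 without any 1 Y-Scr library. The B cell markers that fell were 2 without Y-Scr replicate 1. Of the plasmacytoid markers 1 fell without Y-Scr replicate 2, and 1 rose without any 1 library other than Y-KO replicate 3. Of 8 epithelial genes 3 rose and 1 fell (3 and 4 without Y-KO replicate 3, 2 and 1 without Y-Scr replicate 2 or 3). Their median log2 fold change was -0.13. All Y-KO values lay below all Y-Scr values for 4 of the genes, and above them for 3. Among those that rose were the keratin genes Krt8 and Krt18, which carcinoma cells express. They were at 1990 ± 123 and 1250 ± 15.4 CPM in Y-KO against 1502 ± 122 and 928 ± 68.8 CPM in Y-Scr. The Krt8 call was lost without Y-Scr replicate 2 (edgeR adjusted p = 0.0735) or 3 (0.0736). With the close library pairs each summed, the Krt8 and Krt18 calls were lost (edgeR adjusted p = 0.174 and 0.164). The 1 gene that fell was Epcam, another epithelial marker, named after its values were seen. With the close pairs summed its log2 fold change was -1.75 and its call was lost too (edgeR adjusted p = 0.0607). The epithelial genes thus did not move in 1 direction. The sorted fraction thus held both carcinoma and leukocyte transcripts in every library.

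Genes with the pattern most like that of Gzmb were sought among 11406 named genes with a mean of at least 2 CPM. The measure was the root mean square difference of log2 CPM centred on each gene's mean over the 6 libraries, with a prior count of 2 added before the log. The nearest to Gzmb were Skap1 (0.0788), Sytl3 (0.138), F2r (0.138), Sytl2 (0.148) and Ms4a4b (0.172), where the median gene was at 1.38. Skap1, for an adaptor of the T cell receptor, stood at 7.34 ± 2.45 CPM in Y-KO against 41.4 ± 2.53 CPM in Y-Scr. Among the nearest to Prf1 were Lax1 (0.0961), the Y-linked translation factor gene Eif2s3y (0.118), Dscam (0.246) and Klri2 (0.258), with the median gene at 1.52. Transcripts of Eif2s3y were still present in Y-KO, at 14.5 ± 6.85 CPM against 95.6 ± 0.724 CPM in Y-Scr. Which cells they came from was not tested. The nearest to Gzmc were farther off, namely Ms4a2 (0.284), the globin gene Hba-a1 (0.383), Mcpt2 (0.530), the fatty acid transporter gene Slc27a6 (0.668) and Cyp11a1 (0.815), against a median of 3.43. Hba-a1 had a log2 fold change of -7.48 (SE 0.22). The 6 libraries fall into 2 groups, so any gene with a like fold and spread is near, and no likeness was tested. The prior count also shrinks the difference of genes with few Y-KO counts. Ms4a2, with a fitted log2 fold change of -8.08, is thereby brought nearer to Gzmc at -6.64.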

How the data were processed

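The data are 3 Y-KO and 3 Y-Scr bulk RNA-seq libraries of CD45-negative tumour cells. The values are raw read counts per gene that the authors deposited, made with featureCounts 1.5.3 on the Ensembl release 112 annotation of GRCm39, per the file headers, with no option on strand, read pairs or multi-mapping reads. By that tool's defaults, single reads were counted without strand, and multi-mapping reads, or reads on more than 1 gene, were not counted. Among counts from 2 to 20, 80.3% to 82.3% were even in each library, as paired reads counted singly would give, so counts are not independent molecules. Exact intervals are then too narrow, and least folds from a floor too high, even for counting error. Neither covers differences between libraries. Per the submitters' processing notes, FastQC 0.12.1, MultiQC 1.13, Trimmomatic 0.39 and STAR 2.5.2b were also used. The labels name a poly-A, stranded kit.

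Symbols came from a reference table by gene ID (51880 of 57186 matched). In edgeR 4.0.16 (R 4.3.3), filterByExpr (minimum count 10, minimum total 15) kept 17837 genes, TMM set the scaling, and the quasi-likelihood test on group alone was called at a Benjamini-Hochberg adjusted p under 0.05. SEs were obtained as the absolute log2 fold change over the root of F. CPM uses TMM-adjusted library sizes, and CPM per kb the exonic length of the file. Exact 95% intervals of count ratios condition on the total. The fit was also run on simulated counts. These were drawn independently, without an outlying library or paired counts, so that run cannot show how calls behave in the libraries here.

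The genes and gene lists were chosen with earlier results of these data known. Named are the 10 genes, the genes of the chromosome 14 cluster with at least 10 counts, the up to 4 top genes by p in every list and the 5 nearest in pattern to Gzmb, Gzmc and Prf1; any other gene is a reference, a check of the labels or said to be named after its values were seen. Of the genes this rule names, 2 are not reported here. Promoter motifs and alignments used RefSeq windows (GRCm38.p6, all 10 genes matched) and biopython 1.88, and shared windows GENCODE release M21 transcripts. Alternatives tried were a replicate block, DESeq2 1.42.0, other scalings, no filter, a test against a fold of 1.5, sums of close library pairs and leaving out each library. Plots were drawn with matplotlib 3.10.9.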

Additional observations from a re-analysis of the deposited data

How the results depend on the processing

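Across 13 settings that could be fitted for the 10 genes, Prf1, Gzma to Gzmg and Gzmm were lower in Y-KO in every one, with the smallest difference -2.12 on the log2 scale. Gzmk was above 0 in 11 settings and below 0 in 2. The block and pairing give no information on design, since the same replicate numbers did not deviate together (correlations of -0.00835, 0.00490 and -0.0145). With the replicate block, 1120 genes were lower and 946 higher.

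The number of genes lower in Y-KO (1476) and higher (1395) was 2255 and 730 with library size alone, 490 and 176 against a fold of 1.5 and 360 and 136 with close pairs summed, where fewer samples are left. Of the granule genes, 8 fell without a filter and 3 fell against a fold of 1.5 or with close pairs summed. The 2 granule genes and the 1 inhibitor that rose became 0 with the block, with library size alone, against a fold of 1.5 and with close pairs summed. Substrates that fell were 2 with the block and 0 against a fold of 1.5 or with close pairs summed, and those that rose 1 with library size alone and 0 in the same settings. Regulators that fell were 7 against a fold of 1.5 and 6 with close pairs summed, with 0 rising in both. The other effectors that fell were 2 in both, and the pan-leukocyte markers 7 without a filter and 0 in both. Shares of Gzmc to Gzmg not divided by length were 6.22% in Y-KO and 39.7% in Y-Scr. The cause of these shifts was not tested.

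Leaving out 1 library at a time gave 560 to 3364 genes lower and 461 to 3029 higher, the highest without Y-KO replicate 3. The granule genes ranged from 3 to 9 falling and 0 to 4 rising, inhibitors from 3 to 3 and 0 to 1, substrates from 0 to 4 and 0 to 6, regulators from 8 to 20 and 1 to 2, other effectors from 2 to 5 and 0 to 1. NK markers falling ranged from 13 to 16, T cell markers from 15 to 18 (0 to 1 rising), mast cell markers from 11 to 16, and pan-leukocyte markers from 0 to 7 (0 to 2 rising). The median of the 10 genes ranged from -4.01 to -3.75, the log2 ratio of the summed level from -3.57 to -3.16, and the share of Gzmc to Gzmg from 8.38% to 10.4% (Y-KO) and 49.0% to 50.2% (Y-Scr). Depth limits the Y-KO levels of Gzmm and of Gzmd to Gzmg, which rest on 7 to 82 counts per Y-KO library.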
